A study of Homo sapiens with 12 samples.

Results

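The baseline H3K4me3 landscape of the control line was read from 6 CUT&RUN peak lists of BON1 cells, 3 made with an antibody to trimethylated lysine 4 of histone H3 (H3K4me3) and 3 with IgG. A protein-coding promoter was called recurrent when at least 1 peak of each of the 3 H3K4me3 lists, and no peak of any IgG list, lay within 1 kb of the gene's farthest upstream annotated 5′ end. By this rule 4586 of 20098 protein-coding genes on chromosomes 1 to 22 and X (hg19) had a recurrent promoter, which is 22.8% of all those examined. BON1 is an established human pancreatic neuroendocrine tumor cell line. The control derivative, BON1/TGL/pQ, carries the empty vector and was grown with 0.5 µg/ml puromycin. Each condition used 500000 cells and 1 µl of antibody per 100 µl of reaction, and the background antibody was a rabbit anti-mouse IgG. The series holds 12 labelled samples, of which these 6 were used. The labels number the replicates 1 to 3 but do not say that they came from separate cultures, so the spread between them may be technical.

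H3K4me3 is deposited by the SET1 and MLL families of methyltransferase complexes, many of which are drawn to unmethylated CpG islands, and is found at the starts of genes that are active or poised for transcription. CUT&RUN brings micrococcal nuclease to antibody-bound chromatin inside opened cells, so that short fragments around the bound sites are cut out and sequenced. Neuroendocrine cells of the pancreas and gut store peptides and amines in dense-core vesicles, and genes for granins, prohormone convertases and vesicle fusion proteins are commonly used to identify them.

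The 150 bases just upstream of the 5′ end are shown for 7 promoters that span the range described below (hg19, given 5′ to 3′ on the strand of the gene, with no annotated exon in the stretch). RAD51B, NPM3 and NBPF1 were chosen as high-ranking promoters, BTN3A1 and ERAP2 as the highest-ranking promoters of low CpG content, and SCG2 as the highest-ranking neuroendocrine marker. PRSS1, an acinar trypsinogen, had no peak within 1 kb in any of the 6 lists. Capitals mark matches, on either strand, to a GC box (GGGCGG), the letters CCAAT, an ETS motif (CCGGAAG), NRF1 motifs (GCGCATGC or GCCTGCGC), a YY1 motif (AAGATGGC), a TATA box (TATAAA) or a ZNF143 motif (ACTACAAT).
RAD51B, chr14:68286346-68286495, plus strand: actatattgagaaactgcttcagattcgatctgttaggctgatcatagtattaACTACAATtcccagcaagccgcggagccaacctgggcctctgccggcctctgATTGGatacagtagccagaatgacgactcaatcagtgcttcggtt
NPM3, chr10:103543204-103543353, minus strand: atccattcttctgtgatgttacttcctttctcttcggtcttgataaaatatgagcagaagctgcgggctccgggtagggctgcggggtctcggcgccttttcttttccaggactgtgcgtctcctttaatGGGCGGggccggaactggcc
NBPF1, chr1:16940058-16940207, minus strand: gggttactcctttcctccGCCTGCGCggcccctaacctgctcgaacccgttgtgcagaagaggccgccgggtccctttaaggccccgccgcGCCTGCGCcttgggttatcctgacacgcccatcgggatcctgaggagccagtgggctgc
BTN3A1, chr6:26402315-26402464, plus strand: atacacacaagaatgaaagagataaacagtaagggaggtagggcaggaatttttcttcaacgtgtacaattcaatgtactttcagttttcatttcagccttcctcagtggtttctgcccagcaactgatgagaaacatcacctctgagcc
ERAP2, chr5:96211540-96211689, plus strand: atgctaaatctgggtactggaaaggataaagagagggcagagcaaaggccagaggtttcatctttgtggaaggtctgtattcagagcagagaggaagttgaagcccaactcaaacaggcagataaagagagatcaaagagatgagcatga
SCG2, chr2:224467080-224467229, minus strand: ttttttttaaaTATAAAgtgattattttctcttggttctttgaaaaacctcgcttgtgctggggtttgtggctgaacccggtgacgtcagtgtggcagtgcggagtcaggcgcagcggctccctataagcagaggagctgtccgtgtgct
PRSS1, chr7:142457169-142457318, plus strand: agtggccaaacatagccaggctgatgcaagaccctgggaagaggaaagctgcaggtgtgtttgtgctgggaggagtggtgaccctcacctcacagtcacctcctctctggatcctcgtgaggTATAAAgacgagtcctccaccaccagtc

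The sequences differed in CpG content and motifs. The NBPF1 stretch held 13 CpG dinucleotides and an NRF1 motif at 2 places, and the NPM3 stretch held 9 CpGs and a GC box. RAD51B had 6 CpGs with a ZNF143 and a CCAAT motif. BTN3A1 had 1 CpG and ERAP2 had 0, and none of the searched motifs was in either stretch. SCG2 held TATAAA near the upstream end of its stretch, and PRSS1 held it close to the 5′ end, so the matches are not alike in position. SCG2 was marked in every H3K4me3 list and PRSS1 in none.

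The 3 H3K4me3 lists were larger than the IgG lists and lay at different places in the genome. H3K4me3 replicates 1 to 3 had 17687, 12138 and 10237 peaks, and IgG replicates 1 to 3 had 1694, 1665 and 2106. The means were 13354 ± 3871 and 1822 ± 247 (SD, n = 3 each), and the ratio of geometric means was 7.18-fold (log2 2.84). The log2 ratio was 6.95 for peaks limited to a −log10 q of 5 or more and 6.58 for those with 5 or more fragments at the summit. Among H3K4me3 peaks, 59.6, 59.4 and 58.4% lay within 1 kb of a protein-coding 5′ end, against 2.48, 2.52 and 2.04% of IgG peaks. Gene bodies held 54.4 to 58.2% of IgG peaks and 10.5 to 12.2% of H3K4me3 peaks. A promoter peak was present for 8131, 6517 and 5676 genes in the H3K4me3 lists and for 51, 45 and 49 genes in the IgG lists, a 139-fold ratio of geometric means (log2 7.12). That log2 ratio was 5.04 with equal list lengths, 5.81 with the 5′ ends of all transcripts and 6.46 with a 2.5 kb window. Median GC content under the peaks was 57.0, 56.4 and 56.3% for H3K4me3 and 41.5, 41.7 and 41.4% for IgG. Median peak width was 128, 120 and 112 bp against 96 bp in each IgG list. The groups did not overlap for peak number, promoter share, genes with a promoter peak, width or GC. Each of these 5 comparisons gave a two-sided exact permutation p of 0.1 (0.1 after Benjamini-Hochberg adjustment), the smallest p that 3 libraries against 3 allow, so none could pass 0.05.

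**Figure D1:**
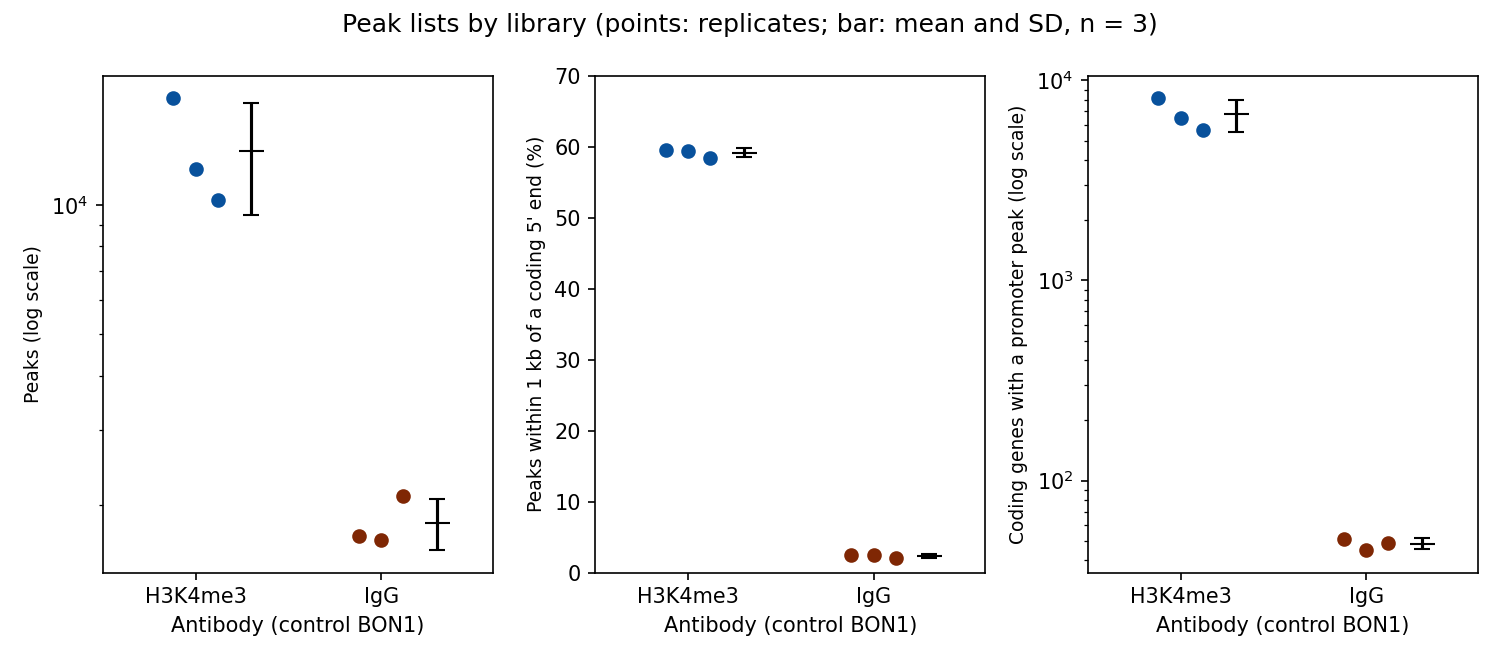
Peaks per list (left, log scale), the percentage of peaks within 1 kb of a protein-coding 5′ end (middle) and the number of coding genes with a promoter peak (right, log scale) in control BON1 cells. Points are replicates 1 to 3 from left to right and bars are the mean and SD (n = 3). The H3K4me3 libraries lie between 58.4 and 59.6% in the middle panel and the IgG libraries between 2.04 and 2.52%.

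The lists gave no read totals, and depth was solved from each peak's fold enrichment and p-value. The solved numbers are called fragments here, but whether each stands for a fragment or a read is not given in the sources used here. The lowest background in each list was 0.0659, 0.0705 and 0.0478 fragments per base in H3K4me3 replicates 1 to 3 and 0.0346, 0.0433 and 0.0333 in IgG replicates 1 to 3. Peaks rested on a median of 12, 10 and 9 fragments at the summit in the H3K4me3 lists and on 3 in each IgG list. Fewer than 5 fragments lay under 91.3 to 94.3% of IgG peaks and under 7.32 to 12.5% of H3K4me3 peaks. H3K4me3 replicate 3 was the shallowest of its group and had the fewest peaks, whereas replicate 2 had the highest background and not the most peaks. How far depth set the number of called promoters was not tested.

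Recurrent promoters carried stronger peaks than those found in fewer lists, an order that the rule favours because stronger peaks are called more readily. Their strongest peak had a median of 17, 13 and 11 fragments in H3K4me3 replicates 1 to 3 and a median fold enrichment, as deposited by the authors, of 9.56, 8.23 and 7.73. A further 2169 genes had a promoter peak in 2 of the 3 lists and no IgG list, 2064 in 1 list, and 11134 in none of the 6 lists. Peaks were also ranked within each list by −log10 p, from 0 (weakest) to 100 (strongest), and the best rank at a promoter was averaged over the lists that marked it. The median of this mean rank was 72.0 for recurrent promoters, 48.3 for those in 2 lists and 33.9 for those in 1 list. These sets draw on different lists, and their order was not tested. Of the genes marked in 2 lists, 1371 were missing from replicate 3, 666 from replicate 2 and 132 from replicate 1. For 325 of these 2169 genes the remaining list had a peak within 2.5 kb, and whether this was the same peak was not tested.

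Each list was also compared with the pair it was not part of. Of 4718 promoters free of IgG peaks and marked in replicates 2 and 3, replicate 1 held 97.2%, against 40.5% of all coding genes. Replicate 2 held 87.3% of the 5252 marked in replicates 1 and 3, against 32.4% of all genes. Replicate 3 held 77.0% of the 5957 marked in replicates 1 and 2, against 28.2%. Recovery rose with rank in the other lists. In the lowest of 4 equal rank classes it was 92.0, 68.0 and 51.8% for replicates 1 to 3, and in the highest class 100, 99.2 and 97.2%. A promoter of low rank that was missed in 1 list, replicate 3 above all, was thus not shown to be unmarked.

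The recurrent set was made up almost entirely of CpG-rich promoters. Promoters were classed as high-CpG when any 500 bp window within 1 kb of the 5′ end had at least 55% GC and an observed-to-expected CpG ratio of at least 0.75, as low-CpG when no window reached a ratio of 0.48, and otherwise as intermediate. Of 12593 high-CpG promoters, 4147 were recurrent (32.9%), against 408 of 3210 intermediate (12.7%) and 31 of 4295 low-CpG promoters (0.722%). High-CpG promoters thus formed 90.4% of the recurrent set and 62.7% of all coding promoters. The share with a peak in a single H3K4me3 library was 48.7 ± 9.03% for the high-CpG class, 17.5 ± 2.86% for the intermediate class and 1.79 ± 0.458% for the low-CpG class (SD, n = 3). In the IgG libraries the shares were 0.259, 0.228 and 0.194% for the same classes, so the IgG peaks showed no comparable gradient. CpG content was not sufficient for a call, since 36.2% of high-CpG promoters had no peak in any H3K4me3 list. Recurrent promoters had median fragments in replicates 1 to 3 of 17, 13 and 11 in the high-CpG class, 19, 14 and 12 in the intermediate class and 17, 14 and 11 in the low-CpG class. Their median mean ranks were 71.7, 75.7 and 66.7, with no test.

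**Figure D2:**
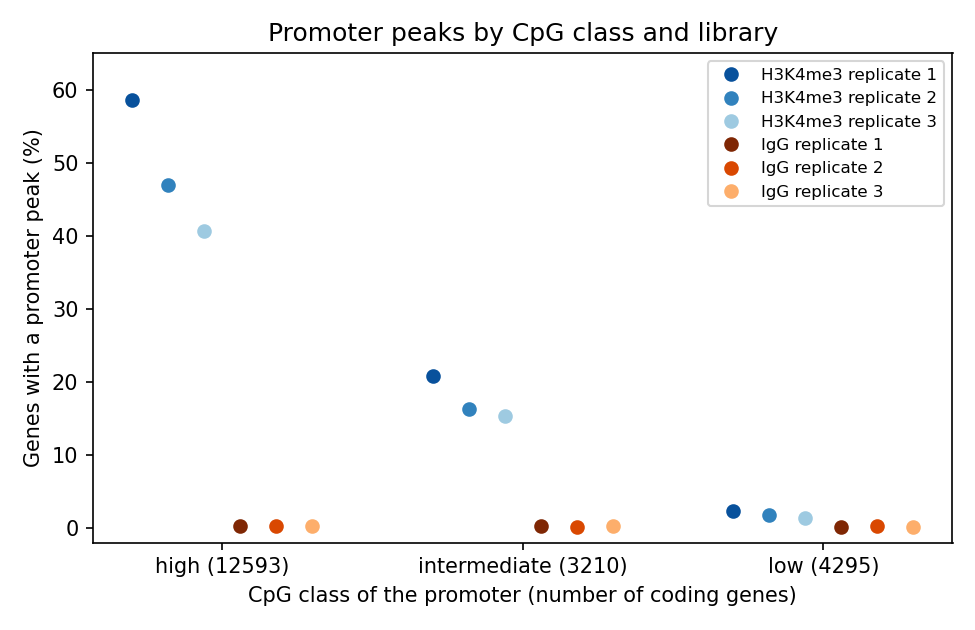
Percentage of coding genes with a promoter peak (vertical axis) by CpG class of the promoter (horizontal axis, number of genes in brackets), 1 point per library. H3K4me3 points fall from a mean of 48.7% at high-CpG promoters to 1.79% at low-CpG promoters, while all IgG points stay near 0.

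Peak summits at recurrent promoters gathered just upstream of the 5′ end. In replicates 1 to 3, 1035, 955 and 884 summits fell in the 50 bp before the 5′ end, more than in any other 50 bp bin within 2 kb. Counts dropped to 107, 102 and 75 summits between 100 and 150 bp downstream and 99, 90 and 91 between 150 and 200 bp, and then rose again over a broad downstream shoulder. The strongest summit of each promoter had a median position of 20, 20.5 and 23.5 bp downstream. Between 100 and 800 bp downstream lay 34.5 to 34.9% of the strongest summits, against 13.2 to 13.5% between 200 and 800 bp upstream. Among the 1147 recurrent promoters of highest mean rank, 41.1 to 41.9% had their strongest summit within 100 bp of the 5′ end, against 26.0 to 26.3% of the 1147 of lowest rank.

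**Figure D3:**
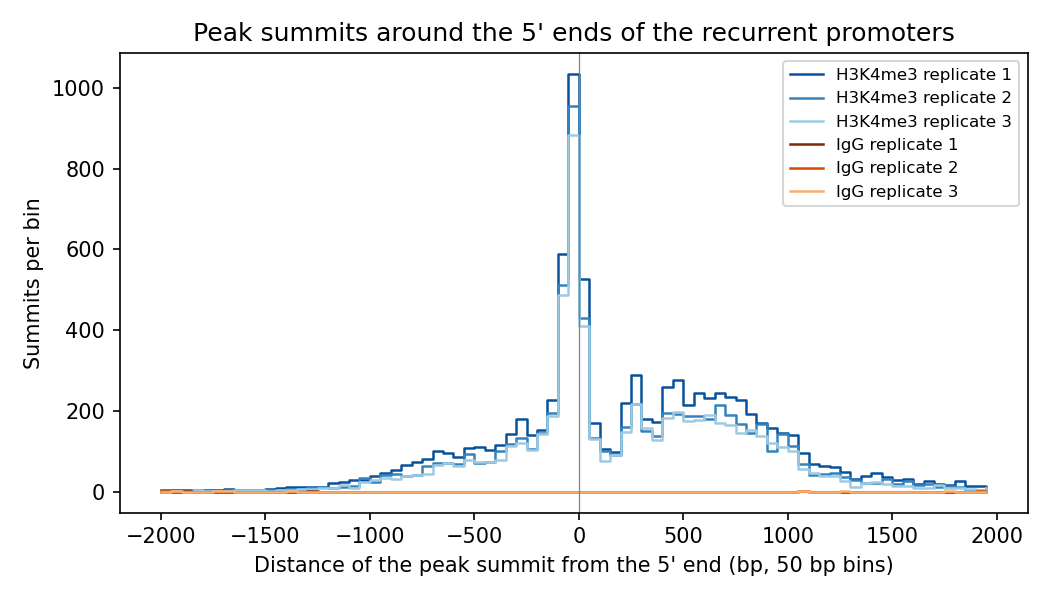
Number of peak summits per 50 bp bin (vertical axis) by distance from the 5′ end of the 4586 recurrent promoters (horizontal axis, bp, negative upstream), 1 line per library. The 3 H3K4me3 lines peak in the bin just upstream of 0, with 884 to 1035 summits, dip between 100 and 200 bp and form a downstream shoulder.

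The searched motifs, which were picked after the data were seen, were counted on both strands in the 250 bases before the 5′ end of all 20098 coding genes. CCGGAAG was present in 17.8% of recurrent and 8.94% of all promoters. CCAAT was present in 39.0% of recurrent and 33.1% of all promoters. GCGCATGC or GCCTGCGC was present in 13.9 and 8.29%, AAGATGGC in 2.97 and 1.33%, and ACTACAAT in 1.31 and 0.582%. All of these stood higher in recurrent promoters also within the high-CpG class. There CCGGAAG was found in 18.2% of the 4147 recurrent promoters and 5.96% of the 4561 without an H3K4me3 peak. GGGCGG was in 59.8% of recurrent and 48.8% of all promoters, but within the high-CpG class it was in 61.8% of recurrent promoters and 67.2% of those without an H3K4me3 peak. TATAAA was in 5.36% of recurrent promoters, 10.1% of all promoters and 21.1% of low-CpG promoters. Within the high-CpG class it was in 4.97% of recurrent promoters, 5.40% of all and 6.18% of those without an H3K4me3 peak. A match is not evidence of a bound factor.

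Among the 20 recurrent promoters of highest mean rank, RAD51B, a gene of homologous recombination, led with 81, 62 and 65 fragments at the summit in H3K4me3 replicates 1 to 3. Its summits lay 47, 47 and 55 bp upstream of the 5′ end, inside the stretch printed above. NPM3, a nucleoplasmin family chaperone, followed with 67, 67 and 56 fragments and summits 17 to 29 bp downstream. NBPF1 had 72, 55 and 43 fragments with all 3 summits 39 bp upstream, but NBPF genes have near-identical copies, so the locus of its reads is uncertain. RAD51B and NBPF1 were highest in replicate 1, and NPM3 was equal in replicates 1 and 2.

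Several of the highest-ranking peaks lay near the 5′ ends of a pair of genes on opposite strands and were counted for both. MRPL43, a mitochondrial ribosomal protein, and TWNK, the mitochondrial DNA helicase, shared peaks of 58, 51 and 47 fragments, with summits 160 to 170 bp into TWNK. HSPB6, a small heat shock protein, and PROSER3 shared peaks of 68, 48 and 59 fragments, with summits 426 to 428 bp into PROSER3. ERCC8, of transcription-coupled repair, and NDUFAF2, a complex I assembly factor, shared 58, 36 and 39 fragments. AREL1, a ubiquitin ligase, and FCF1, an rRNA processing factor, shared 49, 51 and 40 fragments. The others in the top 20 were ZSCAN22, DCAKD, COPS7B (a COP9 signalosome subunit), CDK5RAP1, SYF2 (a splicing factor), ZNF780B, POLL (DNA polymerase lambda), SERPINH1 (a collagen chaperone) and CWF19L1. Another coding 5′ end lay within 1 kb of 36.3% of recurrent promoters and of 17.5% of all coding promoters. Of genes with such a neighbour 47.2% were recurrent, against 17.6% of the rest, and neighbouring genes can be counted from the same peak.

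By the recurrence rule, genes of protein synthesis were marked at most of their promoters. Of 87 cytosolic ribosomal protein genes, taken by symbol, 53 were recurrent (60.9%), and 77, 65 and 62 had a promoter peak in replicates 1 to 3 (78.2 ± 9.12%, SD, n = 3). RPL7A led them with 38, 42 and 26 fragments, a peak it shares with its divergent neighbour MED22, and RPL37A had 44, 35 and 21. Of 79 mitochondrial ribosomal protein genes 52 were recurrent (65.8%), including the divergent pair MRPL46 and MRPS11 with 46, 29 and 25 fragments. Aminoacyl-tRNA synthetases, which charge tRNAs, were recurrent at 19 of 35 promoters (54.3%). KARS1, the lysyl-tRNA synthetase, had 53, 40 and 44 fragments and QARS1, the glutaminyl-tRNA synthetase, 53, 40 and 25. Translation initiation factors were recurrent at 30 of 55 promoters (54.5%), among them EIF3L, EIF6 and EIF4E, which binds the mRNA cap. All of these shares stand above the 22.8% of all coding genes and the 32.9% of high-CpG promoters. For peaks with a −log10 q of 5 or more the 4 shares were 49.4, 57.0, 40.0 and 36.4%, against 16.9% of all coding genes. With equal list lengths they were 17.2, 17.7, 5.71 and 7.27%, against 3.86%.

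Other basal machinery also stood above the 22.8% of all coding genes and the 32.9% of all high-CpG promoters. Genes of respiratory complexes I, II and III and of ATP synthase were recurrent at 45 of 69 promoters (65.2%), with NDUFB8 at 33, 38 and 30 fragments and NDUFV2 at 34, 23 and 31. Proteasome subunits were recurrent at 26 of 39 promoters (66.7%), with the catalytic subunit gene PSMB5 at 38, 34 and 22 fragments. RNA polymerase II, general transcription factor and Mediator genes were recurrent at 44 of 70 promoters (62.9%). MED16, a Mediator subunit, had 36, 32 and 28 fragments and TAF5, a TFIID subunit, 39, 34 and 26. Splicing factors were recurrent at 36 of 59 promoters (61.0%), with SRSF4 at 35, 31 and 35 fragments and PRPF31 at 32, 26 and 28. Cell cycle and DNA replication genes were lower, at 33 of 69 promoters (47.8%), with CDK7 at 29, 22 and 22 fragments and CDK2 at 32, 19 and 21.

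Histone and zinc finger genes lay between these groups and the background. Replication-dependent histone genes were recurrent at 25 of 64 promoters (39.1%, against 22.8% of all coding genes), and at 44 within 2.5 kb (where 27.2% of all coding genes were recurrent), but at 13 (20.3%, against 16.9%) when peaks were limited to a −log10 q of 5 or more. With equal list lengths 2 were recurrent (3.13%, against 3.86%). H3C4 had 31, 27 and 22 fragments and H2BC18 had 30, 28 and 16, and the near-identical copies in these clusters make single histone genes uncertain. Genes named ZNF, mostly transcription factors with tandem zinc fingers, were recurrent at 177 of 508 promoters (34.8%), led by ZNF780B with 46, 46 and 37 fragments and ZNF623 with 37, 28 and 33. Within high-CpG promoters their share was 39.9%, against 32.9% for all high-CpG promoters.

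Of 19 H3K4 methyltransferase and demethylase genes, a list that also holds subunits of the methyltransferase complexes and whose promoters were all of high CpG content, 9 were recurrent (47.4%, against 32.9% of all high-CpG and 22.8% of all coding promoters) and all but 4 had a promoter peak in at least 1 H3K4me3 list. WDR82, a SET1 complex subunit, had 22, 21 and 11 fragments and RBBP5, common to the SET1 and MLL complexes, 29, 16 and 18. MEN1, which encodes the MLL partner menin and is a tumor suppressor of neuroendocrine tissues, had 14, 12 and 9. The others were ASH2L, CXXC1, SETD1A, KDM1A, KDM1B and KDM5A. KMT2A and KMT2B had peaks in replicates 1 and 2 only, with 13 and 14 fragments and 27 and 14 fragments. DPY30 also lacked a peak within 1 kb in replicate 3 only, and for KMT2A all 3 H3K4me3 lists had a peak within 2.5 kb. With equal list lengths none of the 19 was recurrent, against 3.86% of all coding genes.

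**Figure D4:**
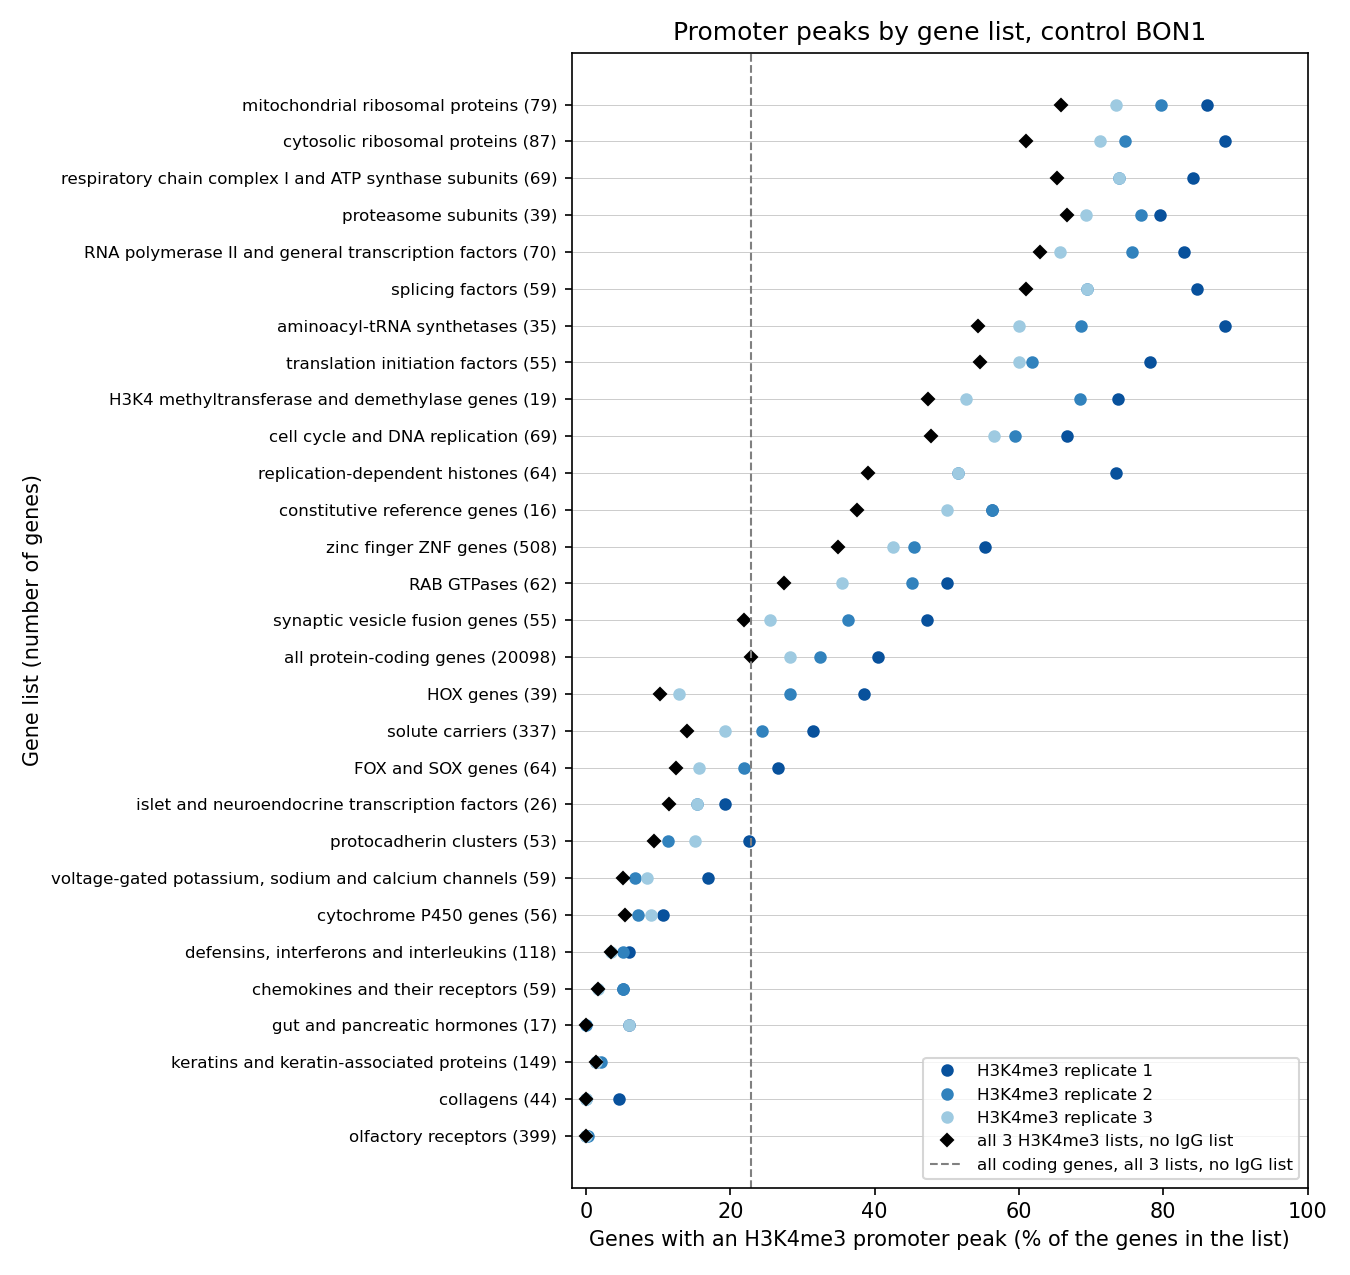
Percentage of the genes of each list (vertical axis, number of genes in brackets) with a promoter peak in H3K4me3 replicates 1 to 3 (circles) and in all 3 H3K4me3 lists but no IgG list (diamonds). The dashed line marks 22.8%, the share of all coding genes. Diamonds for the ribosomal protein lists lie at 60.9 and 65.8%, and that for olfactory receptors lies at 0.

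Large tissue-restricted families were nearly free of peaks. None of 399 olfactory receptor genes was recurrent, against 22.8% of all coding genes, and a single H3K4me3 list marked 1 of them. Of the 399, 327 have low-CpG promoters, the class in which 0.722% of all promoters were recurrent. None of 44 collagen genes was recurrent, although 24 have high-CpG promoters, and only replicate 1 marked any, 2 in number. Keratins and keratin-associated proteins were recurrent at 2 of 149 promoters, those of KRT8 and KRT18. Of the 149, 112 have low-CpG promoters, and the 2 are 33.3% of the 6 with high-CpG promoters, against 32.9% of all high-CpG promoters. These neighbouring genes encode the keratin pair of simple epithelia, and their shared peaks had 47, 37 and 34 fragments, among the strongest 1% of each list. Both calls rest on the same peak in each list: its summit lay within 41 bp of the KRT8 5′ end but 1042 to 1095 bp from that of KRT18, so KRT18 was reached by the edge of the peak.

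Immune, metabolic and signaling families were below the 22.8% of all coding genes, and several consist mostly of low-CpG promoters, of which 0.722% were recurrent among all coding genes. Defensin, interferon and interleukin genes were recurrent at 4 of 118 promoters (3.39%), of which 85 are low-CpG, and the 4 are 25% of the 16 high-CpG members, against 32.9% of all high-CpG promoters. They included IFNAR1, an interferon receptor subunit caught by its symbol, with 36, 27 and 24 fragments. Also included was IL23A with 22, 13 and 11 fragments at the farthest upstream end of its annotated span. The IL23A summits lay downstream of that end in replicates 1 and 3 but upstream of it in replicate 2. Which gene the IL23A peaks belong to was not tested. Chemokines and their receptors were recurrent at 1 of 59 promoters, CXCL8, the neutrophil attractant interleukin-8, with 8, 9 and 6 fragments at a low-CpG promoter, the class of 43 of the 59. It was no longer recurrent when peaks were limited to a −log10 q of 5 or more. Cytochrome P450 genes were recurrent at 3 of 56 promoters, CYP51A1 of sterol synthesis, CYP39A1 and CYP3A5, and 35 of the 56 are low-CpG. Voltage-gated channel genes were recurrent at 3 of 59 promoters, among them SCN11A and KCNE4. Of the 38 with high-CpG promoters 5.26% were recurrent, against 32.9% of all high-CpG promoters. The SCN11A summits lay 147 to 159 bp into the gene, and which gene these peaks belong to was not tested. Solute carriers, a large transporter family, were recurrent at 47 of 337 promoters (13.9%), led by SLC7A8, an amino acid transporter, with 65, 59 and 35 fragments. Protocadherin cluster genes were recurrent at 5 of 53 promoters, with PCDHA10 at 28, 20 and 19 fragments.

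Developmental transcription factor families had low shares for families with CpG-rich promoters. Of 39 HOX genes, 33 have high-CpG promoters. Yet 4 HOX genes were recurrent (10.3%, against 22.8% of all coding genes) and 1 of the 33 (3.03%, against 32.9% of all high-CpG promoters). Among the 4 were HOXB13 with 10, 10 and 7 fragments, and HOXB3 and HOXB6, which shared peaks of 17, 17 and 15. The shared summits lay 904 and 877 bp into HOXB3 in replicates 1 and 2 but 120 bp upstream of it in replicate 3. Single replicates marked 15, 11 and 5 HOX genes, and the 7 marked in 2 lists were all missing from replicate 3. When the 5′ ends of all transcripts were used, 7 HOX genes were recurrent (17.9%), against 27.7% of all coding genes by that rule. FOX and SOX genes were recurrent at 8 of 64 promoters (12.5%), all within the 56 of high CpG content (14.3% of these, against 32.9% of all high-CpG promoters), led by FOXD1 with 45, 30 and 28 fragments. Counts for both families moved by more than 1.5 times when 2 of the 3 lists were enough, to 11 (28.2%) and 15 (23.4%). The share of all coding genes by that rule was 33.6%. For peaks with a −log10 q of 5 or more the counts were 4 (10.3%) and 3 (4.69%), against 16.9% of all coding genes. With equal list lengths they were 0 and 1 (1.56%), against 3.86%.

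The neuroendocrine label of the line was checked on 28 marker genes. Of these, 6 were recurrent (21.4%), near the 22.8% of all coding genes. The share was 21.4% against 16.9% when peaks were limited to a −log10 q of 5 or more, 28.6% against 27.2% with a 2.5 kb window and 0 against 3.86% with equal list lengths. Of the 20 with high-CpG promoters 4 were recurrent, against 32.9% of all high-CpG promoters. SCG2, which encodes the granin secretogranin II, was the strongest with 44, 31 and 29 fragments. NEUROD1, a transcription factor of neuronal and endocrine differentiation, had 26, 22 and 23. SCG3, another granin gene, had 30, 15 and 13 fragments and CHGB, chromogranin B, had 20, 19 and 12. RAB3A, a GTPase of secretory vesicles, had 19, 16 and 11, and SYT1, the calcium sensor synaptotagmin 1, had 29, 12 and 12. Replicate 1 had the highest value for all 6 genes.

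The summits of SCG2, NEUROD1, SCG3, CHGB and SYT1 lay downstream of the 5′ end in all replicates, for SYT1 681 to 686 bp and for NEUROD1 716 to 809 bp into the gene. The merged SCG2 region, chr2:224465794-224467161, was 1368 bp wide, number 3 in width among the 5709 recurrent regions. Peaks of replicates 1 to 3 covered 1252, 847 and 621 bp of it. Only the regions near SEMA3A (1442 bp) and at MMADHC (1418 bp) were wider.

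Other standard neuroendocrine markers were not recurrent. CHGA, chromogranin A, had a promoter peak in replicate 1 only, with 12 fragments, and SYP, synaptophysin, in replicate 1 only, with 5. PCSK1, a prohormone convertase, had 12 and 9 fragments in replicates 1 and 3, and SLC18A1, a vesicular monoamine transporter, had 7 and 5 in the same replicates. PTPRN had 11 and 5 fragments in replicates 1 and 2, and SNAP25 had 4 in replicate 1. The remaining 16 of the 28, including ENO2, NCAM1, ISL1, PCSK2 and SSTR2, had no peak within 1 kb in any list. INSM1, a transcription factor of endocrine differentiation, was among these 16 but had a peak within 2.5 kb in all 3 H3K4me3 lists. VAMP2 was marked in all 3 lists when the ends of all its transcripts were used. For ENO2, a neuronal and neuroendocrine enolase, neither any transcript start nor the 2.5 kb window gave a peak.

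**Figure D5:**
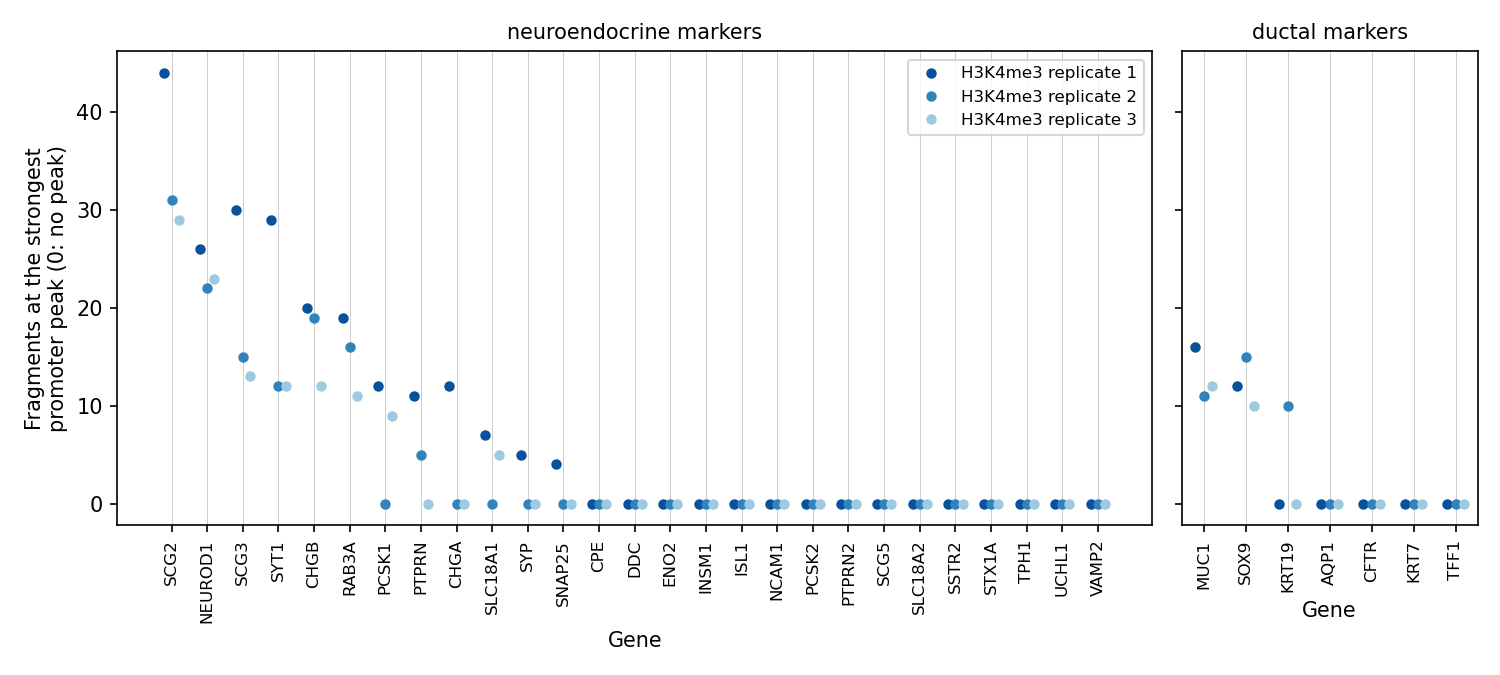
Fragments at the summit of the strongest promoter peak (vertical axis, 0 where the list had no peak within 1 kb) for 27 neuroendocrine and 7 ductal marker genes in H3K4me3 replicates 1 to 3. SCG2 leads with 29 to 44 fragments, and 6 neuroendocrine and 2 ductal genes have points above 0 in every replicate.

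Transcription factors of the islet and neuroendocrine lineage were recurrent at 3 of 26 promoters (11.5%, against 22.8% of all coding genes), and at 6 with the ends of all transcripts (23.1%, against 27.7%). Beside NEUROD1 these were FOXA1, a pioneer factor of endoderm, with 11, 10 and 13 fragments, and RFX6, a factor of endocrine development, with 13, 11 and 10. PDX1, the pancreatic master regulator, had 9 and 8 fragments in replicates 2 and 3 only. None of 17 gut and pancreatic hormone genes was recurrent. NTS, the neurotensin gene, was the only one of the 17 with any promoter peak, with 17 and 14 fragments in replicates 1 and 3, and replicate 2 had a peak within 2.5 kb. Genes of synaptic vesicle fusion were recurrent at 12 of 55 promoters (21.8%, against 22.8% of all coding genes), and at 18 of 55 with the ends of all transcripts (32.7%, against 27.7%). Most of the recurrent ones serve membrane fusion in many cell types. STX10 had 29, 20 and 22 fragments and STXBP3 had 27, 17 and 9. VAMP8 had 29, 17 and 15 at the farthest upstream end of its annotated span. Which gene the VAMP8 peaks belong to was not tested. RAB GTPases, which direct vesicle traffic, were recurrent at 17 of 62 promoters (27.4%, against 22.8% of all coding genes), and at 27.1% of those of high CpG content, against 32.9% of all high-CpG promoters. With equal list lengths 2 were recurrent (3.23%, against 3.86%). The 17 included RAB2B, RAB33B and RAB25.

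Markers of other cell types were also counted. Ductal markers were recurrent at 3 of 8 promoters (37.5%, against 22.8% of all coding genes), among them MUC1 and SOX9. Of their 3 high-CpG promoters 1 was recurrent (33.3%, against 32.9%), and with equal list lengths none of the 8 was. MUC1, a mucin, had 16, 11 and 12 fragments and SOX9, a factor of duct and progenitor cells, 12, 15 and 10. KRT19 had 10 fragments in replicate 2 only. None of the 12 acinar, 9 fibroblast, 6 endothelial, 10 leukocyte, 6 erythroid, 7 hepatocyte or 7 muscle markers had a promoter peak in any H3K4me3 list, although 1 hepatocyte marker was recurrent with a 2.5 kb window. Low-CpG promoters, of which 0.722% were recurrent among all coding genes, made up 10 of the 12 acinar, 6 of the 9 fibroblast, 8 of the 10 leukocyte and 6 of the 7 hepatocyte markers. One endothelial marker given in the list, PECAM1, was not in the gene set used.

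Reference genes show what the promoter rule can miss. Of 16 genes in constant use as references, 6 were recurrent (37.5%, against 22.8% of all coding genes), with PPIA at 42, 33 and 33 fragments and B2M at 45, 26 and 20. GAPDH had 9 fragments in replicates 2 and 3 and no promoter peak in replicate 1. ACTB had no peak within 1 kb of its farthest upstream 5′ end in any list, but all 3 H3K4me3 lists marked another of its transcript starts. TUBB and HPRT1 had no H3K4me3 peak by the 1 kb rule, at any transcript start or within 2.5 kb. For EEF1A1 and YWHAZ only 1 H3K4me3 list marked any transcript start. With the ends of all transcripts 9 of the 16 were recurrent, beside 27.7% of all coding genes. A gene without a recurrent promoter in these lists can therefore still be marked.

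The 31 low-CpG promoters in the recurrent set were exceptions to the CpG pattern. BTN3A1, a butyrophilin of the MHC region, had 35, 16 and 16 fragments with summits 12 to 25 bp upstream, inside the CpG-poor stretch printed above. ERAP2, an endoplasmic reticulum peptidase that trims peptides for MHC class I, had 23, 21 and 13, with summits 528 to 660 bp downstream. ANKRD65 had 27, 17 and 14, ANKS4B 22, 23 and 13, and CASP8, the initiator caspase of death receptors, 19, 17 and 10. All 5 were above the median of recurrent promoters in replicate 1, whereas CASP8 was below the median of 11 fragments in replicate 3.

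IgG peaks removed few genes. Only 145 coding genes (0.721%) had an IgG peak within 1 kb, and 0 had one in more than 1 IgG list. The exclusion cost 42 genes that were marked in all 3 H3K4me3 lists. The strongest of them were the divergent pair EMC1 and MRTO4 with 27, 23 and 19 H3K4me3 fragments, NEK7 with 28, 23 and 23, and PAPOLA, the nuclear poly(A) polymerase, with 31, 19 and 20. CETN3, DAD1, ZNF688, PAIP2B, PCDHA4 and ZSCAN30 followed. H3K4me3 lists overlapped each other at 42.1 to 73.9% of their peaks, whereas IgG lists overlapped each other at 1.99 to 2.58% and H3K4me3 peaks met a given IgG list at 0.271 to 0.479%.

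Noncoding genes had lower shares. Among lncRNA genes 1354 of 18592 had a recurrent promoter, which is 7.28% of all those examined. Of these 860 lay within 1 kb of a coding 5′ end. Among the 14292 lncRNA genes more than 5 kb from any coding 5′ end, 371 were recurrent (2.60%). Processed pseudogenes, which are retrotransposed copies of mRNAs, were recurrent at 22 of 9949 starts (0.221%), and transcribed unprocessed pseudogenes at 54 of 880 (6.14%). For miRNA genes 62 of 3029 starts met the rule, 38 of them within 1 kb of a coding 5′ end.

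The share of high-CpG promoters that were recurrent differed between chromosomes. It was 48.5% on chromosome 14, 45.1% on chromosome 15 and 42.1% on chromosome 19. At the other end it was 7.27% on X, 18.0% on chromosome 18, 20.2% on chromosome 21 and 20.9% on chromosome 4. Single H3K4me3 libraries gave 61.0 ± 9.64% for chromosome 14 and 22.4 ± 9.25% for X (SD, n = 3). The density of IgG peaks moved with this share. It was 0.234 per Mb on X and 0.455 to 0.772 per Mb on the autosomes, as means of 3 libraries. Across the 23 chromosomes Pearson's r between the share and the IgG density was 0.82 and Spearman's rho 0.82, and across the 22 autosomes 0.74 and 0.79. The chromosomes share libraries and depth, the number of chromosome copies in these cells was not measured here, and its part in the order of the chromosomes was not tested.

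When peaks were merged across the H3K4me3 lists instead of assigned to genes, 22956 regions resulted. Of these 12324 came from 1 list, 4820 from 2 lists and 5709 (24.9%) from all 3 lists with no IgG peak. The last number was 8578 without H3K4me3 replicate 3, 3803 when each list had to cover 50% or more of the region and 761 with equal list lengths. Protein-coding promoters held 44.4% of regions from 1 list, 62.8% of those from 2 and 70.1% of those from 3. Gene bodies held 21.98, 7.26 and 4.31%. Median width was 99, 162 and 222 bp, but a region merged from more lists joins more peaks and is wider by construction. Among the 5709 recurrent regions 246 lay in gene bodies and 91 were intergenic. Another 1371 lay at other annotated transcript starts, which include further starts of coding genes. None of the 5709 regions matched the mitochondrial genome. A further 50 regions were present in all 3 H3K4me3 lists and at least 1 IgG list.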

How the data were processed

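Per the submitters' processing notes, the tools included bcl2fastq 2.20, Trimmomatic 0.36, Bowtie2 2.2.9, MACS2 2.1.1 and deepTools 3.5.1 with hg19; duplicate treatment and the peak caller's control are not given in the sources used here. For each of the 6 libraries used, the authors deposited a narrowPeak list with a score, a fold enrichment (ratio), and −log10 p-value and −log10 q-value per peak. These are the authors' values and served to describe, rank or filter peaks within a list, and to solve a whole number at each summit, called fragments. That number rests on an inferred formula (fold as fragments plus 1 over background plus 1, p as a Poisson tail), which was matched within 0.001 for 99.8 to 99.97% of peaks per list. Another whole number came within 0.01 for 4.54 to 6.92% of H3K4me3 peaks and 0.950 to 20.5% of IgG peaks per list. Counts cover counting error only, since PCR copies are not independent molecules.

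Genes were those of GENCODE 44 lifted to GRCh37, and sequences were read from the GRCh37 genome. Python 3.11.15, numpy 2.4.6, pandas 2.3.3, scipy 1.17.1, pysam 0.24.0 and matplotlib 3.10.9 were used, and the steps were tested on simulated lists. The promoter set, gene lists and naming rule were chosen with earlier results of these data known. Named were the 20 recurrent promoters of highest mean rank, the 3 highest of each list, every recurrent marker, the 5 highest low-CpG promoters, the 10 highest with an IgG peak, and CHGA, SYP, INSM1, GAPDH and ACTB; a few items that the rule names are not reported here, and other names were chosen after their values were seen.

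Same-numbered H3K4me3 and IgG libraries deviated together in peaks per chromosome (Pearson's r 0.43, 0.53 and 0.28 over 23 chromosomes, each the highest of its library), so the numbers were taken as pairs. The pairing comes from the data, since the labels give the number alone. The labels name no batch.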

Additional observations from a re-analysis of the deposited data

Results flagged for a closer look

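Signal was also present outside the sequences used above. H3K4me3 replicates 1 to 3 had 274, 200 and 158 peaks outside chromosomes 1 to 22 and X, against 38, 50 and 44 in IgG replicates 1 to 3, so the lowest H3K4me3 value, 158, lay above the highest IgG value, 50. Alternative haplotype sequences held 143, 81 and 81 of the H3K4me3 peaks and 1 IgG peak in each library. The mitochondrial genome held 7, 9 and 5 peaks in H3K4me3 replicates 1 to 3 and 7, 7 and 6 in IgG replicates 1 to 3.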

How the results depend on the processing

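The settings tried were peaks limited to a −log10 q of 5 or more, 5 or more fragments at the summit, equal list lengths of 1665 peaks, all contigs, a 2.5 kb window, 5′ ends of all transcripts, presence in 2 of 3 lists, IgG peaks not excluded, merging within 500 bp, coverage of 50% or more of a region, the replicate block, and each library left out in turn. The direction of all 5 comparisons with IgG was kept in each of these that was run. With 3 or fewer libraries a group, no p could pass 0.05. The replicate block leaves each mean difference unchanged by construction, so the log2 ratio for peak number stayed at 2.84. Its exact paired p was 0.25, the smallest possible, for all 5 comparisons, so no call could change. With peaks limited by −log10 q or by fragments, at least 1 IgG library had no promoter peak, and the log2 ratio of genes with a promoter peak was not computed. With equal list lengths the recurrent promoters numbered 776 and the recurrent regions 761. Recurrent regions numbered 3803 with at least 50% of the region covered and 10529 with 2 of 3 lists. Leaving out 1 library gave 4596 to 5957 recurrent promoters and 5712 to 8578 recurrent regions, the most without H3K4me3 replicate 3. Of 37 gene lists, 31 stayed on the same side of the share of all coding genes in all 6 settings tried. The exceptions were the H3K4 enzyme, RAB GTPase, ductal, neuroendocrine, histone and vesicle fusion lists. IgG peaks, with a median of 3 fragments, exclude few promoters.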

Other observations

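A small set of regions was present in all 6 lists at like strength with either antibody. It held 32 regions, none at a coding promoter, and 14 of them matched the mitochondrial genome over at least 50% of their 25-base words. The strongest, chr15:25537211-25537773, lay in a gene body and had 260, 258 and 260 fragments in H3K4me3 replicates 1 to 3 and 261, 264 and 271 in IgG replicates 1 to 3. An intergenic region, chr11:37677324-37677487, had 187, 182 and 199 fragments with H3K4me3 and 192, 186 and 193 with IgG. Summed over the 32 regions, the libraries had 1899, 2022 and 1789 fragments with H3K4me3 and 2017, 2223 and 1942 with IgG, although background depth was lower in every IgG library. Of the 5376 merged IgG regions, 5324 (99.0%) came from 1 IgG list, and 37 came from all 3.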
